A study of Homo sapiens with 18 samples.

Results

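The HECT and UBR ubiquitin ligases examined here were 30 genes, chosen by symbol and matched to the Ensembl identifiers of a count table of 20263 human genes. They comprised 9 ligases of the NEDD4 subfamily, 6 HERC proteins, 10 other HECT ligases and 5 proteins with a UBR box. All 30 passed the filter on low counts that left 14234 genes for testing. Transcripts were counted by RNA sequencing in 18 libraries of cells that the labels give as human cancer cell lines: MHCC-97H from a liver cancer, MDA-MB-231 from a breast cancer and HCT-116 from a colon cancer. Under each label, 3 libraries came from cells given H3B-8800 at 20 nM and 3 from cells given DMSO, the solvent alone, for 24 h in medium with 10% fetal bovine serum. Every group was annotated as wild type and grown in the same medium. H3B-8800 is an orally active small molecule that binds the SF3B complex, the part of the spliceosome that recognises the branch point of an intron. The comparison addresses how the transcripts of these ligases stood after the spliceosome was modulated, and whether the labels differed in that. Nothing in the labels says that the 3 libraries were separate cultures, and p-values then measure only the spread between these libraries, which may be technical.

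Ubiquitin is passed from an activating enzyme (E1) to a conjugating enzyme (E2) and then, with the help of a ligase (E3), to a substrate. HECT ligases take the ubiquitin onto a cysteine of their own C-terminal HECT domain before they hand it over, and the domains ahead of it choose the substrate: C2 and WW domains in the NEDD4 subfamily, RCC1-like domains in the HERC proteins. UBR proteins share a zinc-binding UBR box. In several of them it recognises destabilising N-terminal residues, the N-degrons, and several carry a RING domain instead of a HECT domain.

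Library totals ran from 28232315 to 41488278 counts. Levels are given as TMM-scaled CPM, counts relative to a common library total, and log2 fold changes with their standard errors (SE) come from edgeR's quasi-likelihood test on all 18 libraries, with Benjamini-Hochberg adjustment over the 14234 genes and a threshold of 0.05 for calling a gene. The markers of cell origin went against some labels. KRT20, LGALS4, VIL1 and CDH17, which mark intestinal epithelium, were at 0 counts in all 6 libraries labelled MHCC-97H, against means of 96.4 to 855 CPM in those labelled MDA-MB-231 and of 100.7 to 878 CPM in those labelled HCT-116. The liver markers ALB, APOA1, TTR and AFP were also at 0 counts in all 6 libraries labelled MHCC-97H. ALB averaged 16.4 CPM under MDA-MB-231 and 20.4 CPM under HCT-116, while APOA1, TTR and AFP were near 0 to 1 CPM there. The epithelial marker EPCAM averaged 17.8 CPM under MHCC-97H, 0.0166 CPM under MDA-MB-231 and 0.0775 CPM under HCT-116. The epithelial markers CDH1, KRT19 and KRT8 went the other way, lower under MHCC-97H than under both other labels. Across genes, the median correlation of log2 levels was 0.992 between libraries labelled MDA-MB-231 and libraries labelled HCT-116, against 0.992 and 0.991 within those labels, and 0.741 between libraries labelled MHCC-97H and those labelled MDA-MB-231. The lines are therefore named below by their labels only. In the pair of HCT-116 libraries numbered 2 many ligases were low: the H3B-8800 library was the lowest of its 3 for 20 of the 30 and the DMSO library for 21. Elsewhere the highest such count was 17, in the MDA-MB-231 DMSO library numbered 3. The share over all genes is not reported here, so this is not read as particular to the ligases.

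Under the MHCC-97H label, 17 of the 30 ligases changed with H3B-8800, where 27.6% of all genes tested did. Of these, 16 rose (12.9% of all genes) and 1, HECTD3, fell (14.7% of all genes). The median log2 fold change over the 30 was 0.38, against -0.06 over all genes tested, and 28 of the 30 values were positive. The giant HECT ligase HERC1 had the largest value, 1.14 ± 0.26 (SE), and HUWE1 the smallest adjusted p, 0.000722. The summed level of all 30 was 1891 ± 41.2 CPM with H3B-8800 and 1486 ± 88.5 CPM with DMSO (SD, n = 3 each). In bulk RNA, more RNA per cell and a larger share of cells with that RNA cannot be told apart. In 19 ligases every H3B-8800 library lay above every DMSO library (19.6% of all genes), and in HECTD3 every H3B-8800 library lay below every DMSO library (28.0% of all genes).

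Transcript length and base composition moved with these values. After a correction that removed each library's smooth trend on GC content and exon length over all genes, 6 ligases were called higher (7.17% of all genes) and 1, HECW1, lower (8.14% of all genes), and the part of library preparation in this was not tested. Without the MHCC-97H DMSO library numbered 2, and likewise without the one numbered 3, 10 were called higher (8.23% and 8.14% of all genes).

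**Figure D1:**
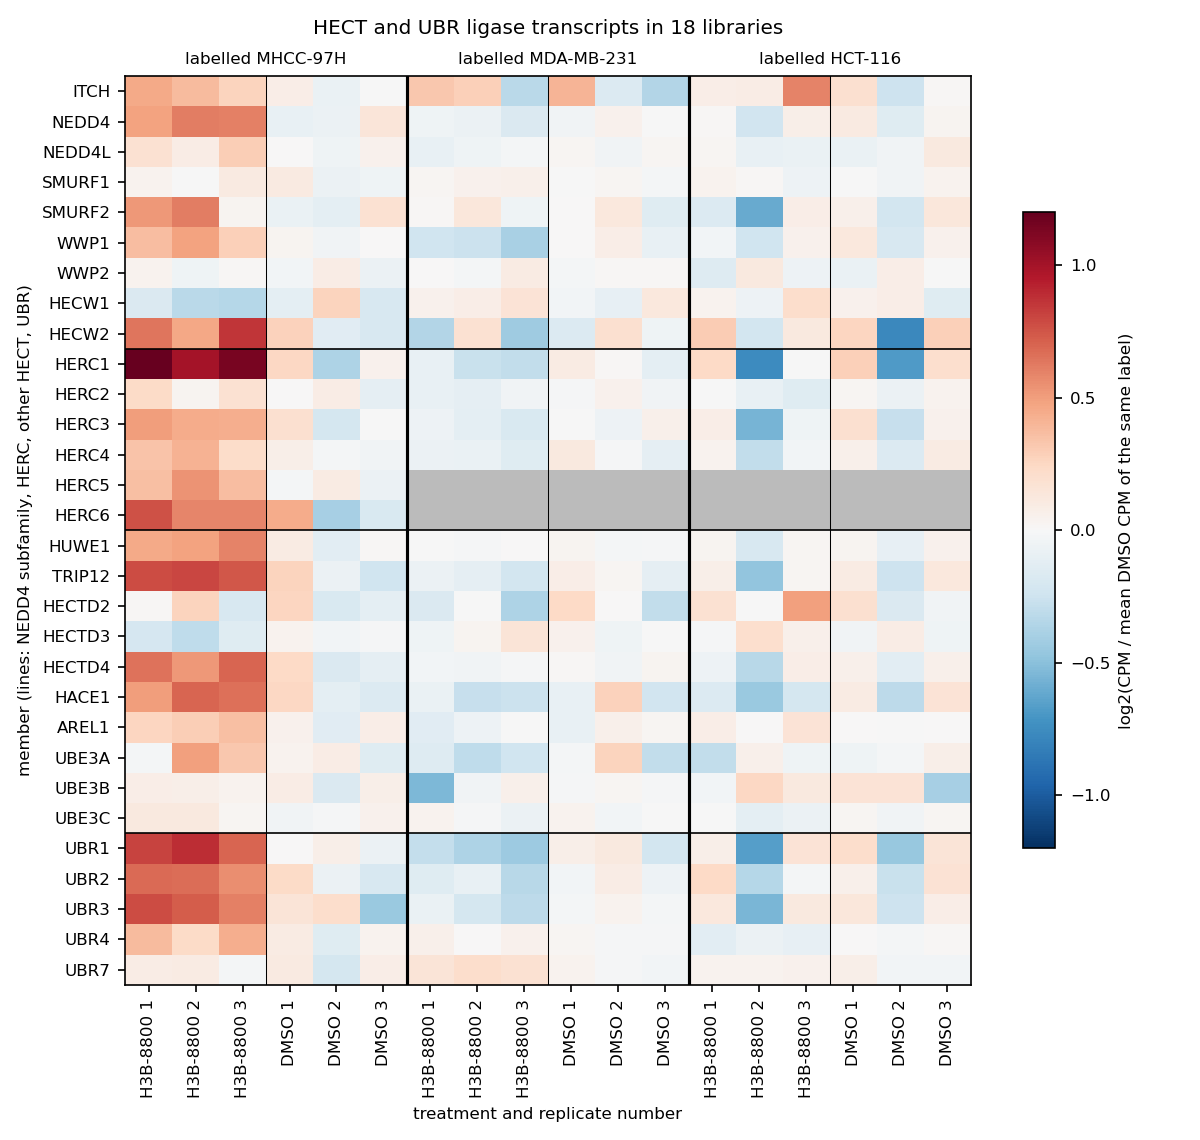
Each row is a ligase and each column a library, grouped by label with the H3B-8800 libraries left of the DMSO libraries. Colour gives the log2 ratio of the library's CPM to the mean DMSO CPM of the same label, and grey marks ligases whose DMSO mean under that label was under 1 CPM. The 3 H3B-8800 columns under MHCC-97H are red for most ligases, palest for SMURF1, WWP2, HECTD2, UBE3B, UBE3C and UBR7, and blue for HECTD3 and HECW1.

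The WW domains of the NEDD4 subfamily bind PY motifs of membrane proteins and signalling proteins. Of its 9 ligases, 3 rose under the MHCC-97H label (12.9% of all genes) and none fell (14.7% of all genes). The other 6 did not pass the test. NEDD4, a ligase of receptors and transporters, had 13.9, 15.2 and 15.1 CPM in the H3B-8800 libraries, against 9.37, 9.50 and 11 CPM in the DMSO libraries. All 3 H3B-8800 libraries lay above all 3 DMSO libraries, and the log2 fold change was 0.57 ± 0.09 (adjusted p = 0.00191, edgeR). WWP1, which ubiquitinates transcription factors of the KLF group among others, had 23.1, 24.8 and 21.7 CPM with H3B-8800, against 18.3, 17.3 and 17.9 CPM with DMSO. The groups did not overlap here either, at 0.38 ± 0.09 (adjusted p = 0.00813, edgeR). The calls of NEDD4 and WWP1 were both lost after the GC and length correction. NEDD4L, known for removing the epithelial sodium channel from the cell surface, averaged 58.5 ± 4.25 CPM with H3B-8800 and 51.2 ± 1.74 CPM with DMSO (SD, n = 3 each). Its call was the weakest of the 3 in this subfamily, at 0.19 ± 0.06 with adjusted p = 0.0350, and it turned to -0.27 after the GC and length correction. It was also lost with limma voom and without any of 5 of the 6 MHCC-97H libraries.

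SMURF1, which ubiquitinates SMAD proteins and RHOA, had the highest level per kb of exons of the subfamily over all 18 libraries. It averaged 54 ± 2.06 CPM with H3B-8800 and 52.2 ± 3.61 CPM with DMSO under the MHCC-97H label, a log2 difference of 0.05 ± 0.05, which did not pass the test (adjusted p = 0.532). Its relative SMURF2 had 8.95, 9.55 and 6.36 CPM with H3B-8800 and 5.89, 5.73 and 7.04 CPM with DMSO. Those groups overlapped, since the H3B-8800 library numbered 3 lay below the DMSO library numbered 3, and the value of 0.41 ± 0.18 missed the threshold (adjusted p = 0.0981). ITCH, a ligase of JUN proteins, was at 0.37, and WWP2, a ligase of OCT4, at 0.01. HECW1 and HECW2, large members studied mostly in neurons, had low levels and opposite signs, -0.27 and 0.66. Of these ligases, ITCH and HECW2 were higher in every H3B-8800 library than in every DMSO library without passing the test (adjusted p = 0.196 and 0.0649).

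Of the 6 HERC ligases, 4 rose under the MHCC-97H label (12.9% of all genes) and none fell (14.7% of all genes). The other 2, HERC2 and HERC6, did not pass the test. HERC1 (chr15:63608618-63833942 in GRCh38 by GENCODE 29, minus strand), a giant protein with a pair of RCC1-like domains, had 21.1, 17.1 and 18.9 CPM with H3B-8800, against 10.2, 6.66 and 8.93 CPM with DMSO. The lowest H3B-8800 library lay well above the highest DMSO library, and the adjusted p was 0.00648. The other giant, HERC2, which takes part in the response to DNA breaks, averaged 47.3 ± 3.33 CPM with H3B-8800 and 42.6 ± 2.85 CPM with DMSO. Its difference of 0.15 ± 0.06 missed the threshold (adjusted p = 0.0921). HERC2 had the highest level per kb of its class over all libraries, and since the genome holds near-identical partial copies of it, its counts are uncertain. The small HERC ligases HERC3 and HERC4 rose by log2 fold changes of 0.46 ± 0.15 and 0.33 ± 0.09 (adjusted p = 0.0318 and 0.0165). The call of HERC3 was lost after the GC and length correction and without any of 5 of the 6 MHCC-97H libraries. That of HERC4 was lost without any of 3 of them, and its value turned to -0.19 after the correction.

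HERC5, the main ligase for the ubiquitin-like modifier ISG15, and its neighbour HERC6, which has that role in mice, were the ligases most different between the labels in level. They are described at length because of values seen in these data. HERC6 (chr4:88378739-88443111), HERC5 (chr4:88457117-88506163) and HERC3 (chr4:88592423-88708542) follow each other on the plus strand of chromosome 4 in GRCh38. HERC5 had 20.8, 23.5 and 21 CPM in the MHCC-97H libraries given H3B-8800, against 15.9, 17.3 and 15.4 CPM in those given DMSO. The groups did not overlap, at 0.42 ± 0.12 (adjusted p = 0.0405), a call that was lost with no filter on low counts, after the GC and length correction and without any single one of the 6 MHCC-97H libraries. In the 12 libraries of the other labels HERC5 had 0 counts. It therefore passed the filter on low counts through the MHCC-97H libraries alone, and it could not be called within or between the other labels. Against a floor of 3 counts over each group, it was at least 611-fold higher in MHCC-97H DMSO libraries than in MDA-MB-231 DMSO libraries and at least 624-fold higher than in HCT-116 DMSO libraries, bounds that cover counting error only. HERC6 had 4.08, 3.62 and 3.61 CPM with H3B-8800 and 3.28, 1.83 and 2.13 CPM with DMSO under the MHCC-97H label. No group mean of HERC6 under the other labels passed 0.488 CPM, and its own difference of 0.64 ± 0.58 did not pass the test (adjusted p = 0.453). HERC3, the third gene of the row, was present under every label, with DMSO means of 16.4 CPM under MHCC-97H, 27.1 CPM under MDA-MB-231 and 27.7 CPM under HCT-116.

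The 250 bases ahead of the starts of these neighbouring genes are shown, since genes next to each other differed in level between the labels. They come from RefSeq on GRCh38.p14, plus strand, at chr4:88378602-88378851, chr4:88456869-88457118 and chr4:88592230-88592479, the last being the one of a pair of HERC3 starts that lies nearest to the annotated gene. Capitals mark matches on either strand to GAAA, any 2 bases and GAAA again, the core of the element that interferon-activated transcription factors bind.
HERC6: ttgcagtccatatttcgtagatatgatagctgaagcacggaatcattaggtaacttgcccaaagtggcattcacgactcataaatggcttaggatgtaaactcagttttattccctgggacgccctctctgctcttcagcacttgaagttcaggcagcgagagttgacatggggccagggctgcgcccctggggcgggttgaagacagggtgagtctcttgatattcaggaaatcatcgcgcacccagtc
HERC5: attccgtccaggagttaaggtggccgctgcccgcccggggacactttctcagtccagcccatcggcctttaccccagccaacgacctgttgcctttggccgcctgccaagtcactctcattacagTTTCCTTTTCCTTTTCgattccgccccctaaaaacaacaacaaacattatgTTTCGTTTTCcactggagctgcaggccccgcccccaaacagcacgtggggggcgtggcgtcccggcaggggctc
HERC3: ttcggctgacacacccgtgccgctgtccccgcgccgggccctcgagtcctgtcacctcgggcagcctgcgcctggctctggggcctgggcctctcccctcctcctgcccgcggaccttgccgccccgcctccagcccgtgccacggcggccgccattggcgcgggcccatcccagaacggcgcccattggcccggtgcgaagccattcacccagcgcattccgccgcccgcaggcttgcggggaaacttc
The HERC5 window holds the motif on its minus strand in 2 stretches, and the HERC6 and HERC3 windows hold none. Windows were found for 28 of the 30 ligases, 46 in all, and HERC5's was the only one among them with the motif, which 3.02% of 35116 windows of that length hold. The members' windows had a median GC content of 61.2%, against 58.0% over all windows. A match in letters is a description and not a bound site.

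Among the other 10 HECT ligases, 5 rose under the MHCC-97H label (12.9% of all genes) and 1 fell (14.7% of all genes). The remaining 4 did not pass the test. HUWE1 (chrX:53532096-53686729, minus strand), a giant ligase of MCL1, p53 and histones, was the most abundant of all 30 per kb of exons. It had 491, 502 and 540.0 CPM with H3B-8800, against 384, 329 and 362 CPM with DMSO. Every H3B-8800 library lay above every DMSO library, and the log2 fold change was 0.51 ± 0.07 (adjusted p = 0.000722). TRIP12, which limits RNF168 at DNA breaks, had 59, 59.8 and 57.7 CPM with H3B-8800, against 41.3, 32.7 and 29.1 CPM with DMSO. The H3B-8800 libraries lay close together and all above the DMSO libraries, at 0.77 ± 0.14 (adjusted p = 0.00283). HECTD4, a giant ligase with few known substrates, had 57.5, 52.6 and 59.4 CPM with H3B-8800, against 43.3, 32.4 and 34.1 CPM with DMSO. The groups were apart at 0.63 ± 0.11 (adjusted p = 0.00210).

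HACE1, an ankyrin-repeat ligase that targets active RAC1, was low and had 5.80, 6.66 and 6.48 CPM with H3B-8800, against 4.87, 3.78 and 3.64 CPM with DMSO. AREL1, a ligase of proteins that promote apoptosis, had 5.60, 5.75 and 6.03 CPM with H3B-8800, against 4.87, 4.26 and 4.94 CPM with DMSO. Neither pair of groups overlapped, and the log2 fold changes were 0.62 ± 0.17 and 0.30 ± 0.08 (adjusted p = 0.0135 and 0.0126). Both calls were lost after the GC and length correction and without the MHCC-97H DMSO library numbered 2, that of HACE1 also without the one numbered 3 and that of AREL1 with limma voom and in a fit of the MHCC-97H libraries alone. HECTD3 (chr1:45002540-45011329, minus strand), a ligase described for caspase-8 and for signalling proteins of T cells, was the one ligase called lower and is singled out for that. It had 67.4, 62.7 and 70.2 CPM with H3B-8800, against 80.0, 75.8 and 76.5 CPM with DMSO. Its groups did not overlap, at -0.21 ± 0.07 (adjusted p = 0.0333), but the call was lost with 3 other scalings of the libraries, after the GC and length correction, in a fit of the MHCC-97H libraries alone and without any of 5 of the 6 MHCC-97H libraries. UBE3A, the ligase lost in Angelman syndrome, was at 0.28, UBE3B at 0.06, the proteasome-associated ligase UBE3C at 0.09 and HECTD2 at 0.04. None of these 4 passed the test, and their adjusted p ran from 0.156 to 0.922. The GC and length correction turned all 4 negative, between -0.33 and -0.06.

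Of the 5 UBR proteins, 4 rose under the MHCC-97H label (12.9% of all genes) and UBR7 did not pass the test. UBR1 and UBR2, RING ligases that bind N-degrons, moved most in this class with UBR3. UBR1 had 10.3, 10.8 and 9.47 CPM with H3B-8800, against 5.86, 6.13 and 5.56 CPM with DMSO. UBR2 had 27.8, 27.6 and 25.5 CPM with H3B-8800, against 20.4, 16.5 and 15.2 CPM with DMSO. In both, the groups lay far apart relative to their spread, and the log2 fold changes were 0.80 ± 0.20 and 0.64 ± 0.15 (adjusted p = 0.00997 and 0.00702). UBR3, which has a UBR box but is not known to bind N-degrons, had 26.3, 25.3 and 23.3 CPM with H3B-8800, against 17, 17.7 and 11.2 CPM with DMSO. The DMSO library numbered 3 was the lowest of that group, and the call at 0.71 ± 0.18 (adjusted p = 0.0108) was lost without it and after the GC and length correction.

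UBR4 (chr1:19074506-19210276, minus strand), the largest protein of the group and also a reader of N-degrons, had the longest coding sequence and most introns of the 30. It had 426, 384 and 443 CPM with H3B-8800, against 350.1, 296 and 336 CPM with DMSO. All H3B-8800 libraries lay above all DMSO libraries, and the log2 fold change was 0.35 ± 0.06 (adjusted p = 0.00191, edgeR). The call of UBR4 was lost after the GC and length correction. UBR7, a PHD-finger protein that ubiquitinates histone H2B, is the shortest of the 30 in coding sequence. It averaged 51.5 ± 2.43 CPM with H3B-8800 and 49.6 ± 5.94 CPM with DMSO (SD, n = 3 each), a difference of 0.05 ± 0.07.

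**Figure D2:**
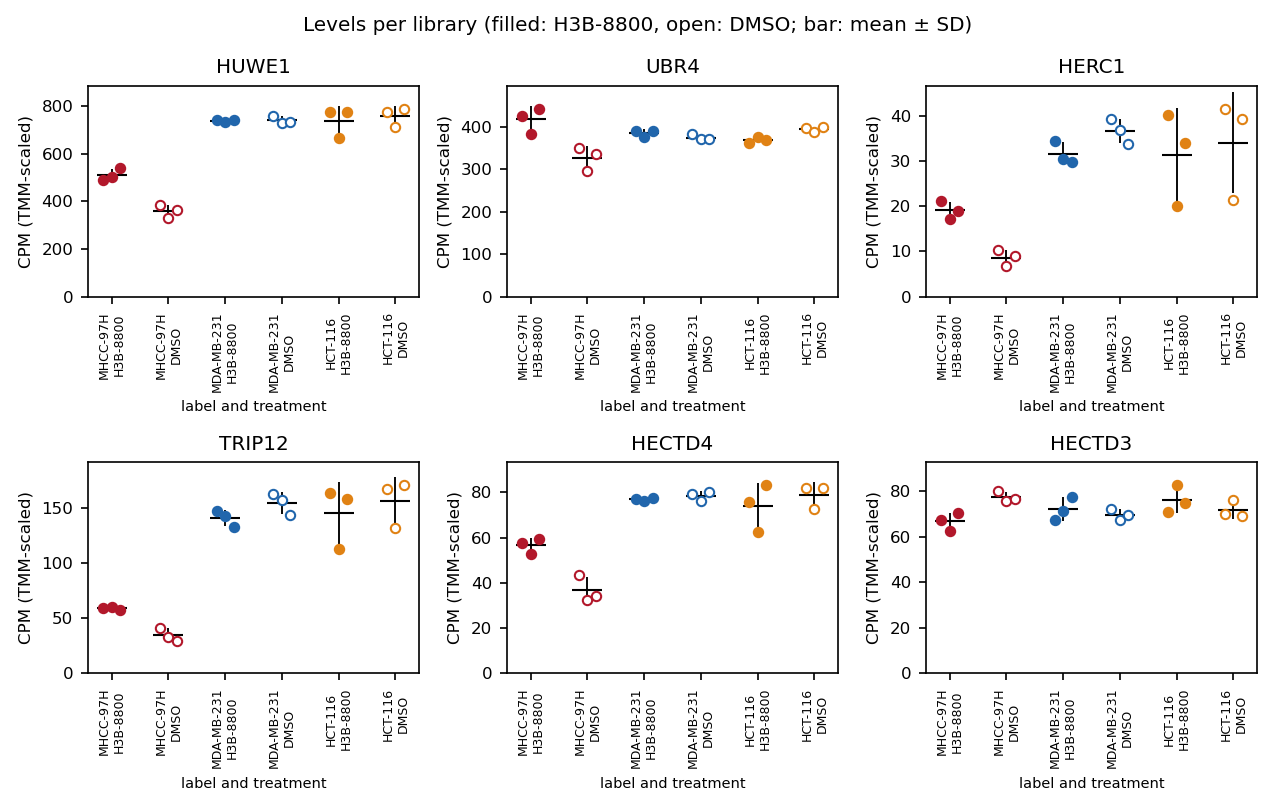
TMM-scaled CPM of 6 ligases in each library, from left to right by label, with H3B-8800 (filled) left of DMSO (open), and bars for the mean and SD of 3 libraries. Under MHCC-97H the filled points of HUWE1, UBR4, HERC1, TRIP12 and HECTD4 lie above the open ones and those of HECTD3 below, while the HCT-116 libraries spread widely for HERC1 and TRIP12.

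Under the other labels no ligase passed the test, and HERC5, at 0 counts there, could not. Of all genes tested, 0.0351% were called by edgeR under the MDA-MB-231 label and 0.0351% under the HCT-116 label. Limma voom and DESeq2 also called 0 of the ligases under either label. Among the 30 ligases, 2 had an unadjusted p under 0.05 under MDA-MB-231 and 0 under HCT-116. Of the 14234 genes tested, 1024 and 655 did, so these 2 ligases are not read as standing out. One was WWP1, at -0.29 ± 0.09 (adjusted p = 0.520, edgeR), with 117, 116 and 106 CPM in the MDA-MB-231 libraries given H3B-8800 and 139, 145 and 129.5 CPM in those given DMSO. UBR7 was the other, at 0.18 ± 0.07 (adjusted p = 0.650), with 37.4, 39 and 38.1 CPM with H3B-8800 and 34.6, 33.2 and 32.9 CPM with DMSO. Neither gene's groups overlapped. Under MDA-MB-231, 7 ligases had every H3B-8800 library below every DMSO library (9.86% of all genes) and 1, UBR7, above (8.67% of all genes). Under HCT-116, UBR4 lay below in this way (3.29% of all genes) and AREL1 above (3.71% of all genes). Leaving out HERC5, 20 of 29 values were negative under each of these labels, with medians of -0.08 under MDA-MB-231 and -0.05 under HCT-116. Over all genes tested the medians were -0.002 and 0, and the shares of negative values are not reported here. Libraries of these labels were as alike between labels as within them, so their agreement is not read as independent. Standard errors of the fold changes, HERC5 and HERC6 aside, ran from 0.05 to 0.25 under both.

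**Figure D3:**
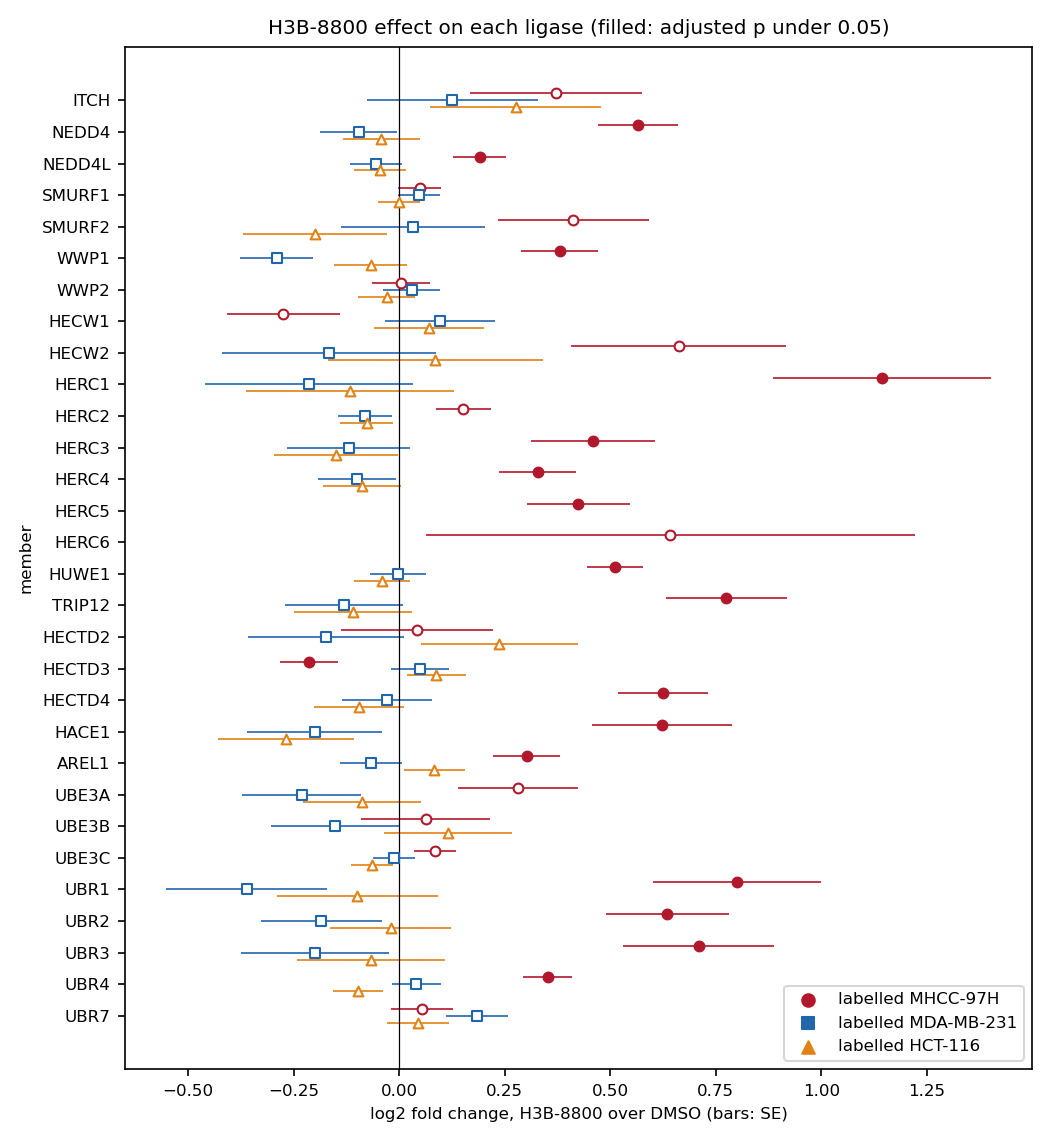
Log2 fold change of each ligase, H3B-8800 over DMSO, under MHCC-97H (red circles), MDA-MB-231 (blue squares) and HCT-116 (orange triangles), with bars for the SE and filled symbols for adjusted p under 0.05. Only red symbols are filled, 16 right of 0 and HECTD3 left of it, and HERC5 and HERC6 are drawn for MHCC-97H alone.

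The difference between the labels was tested itself, with both interaction terms of the model. It passed for 12 of the 30 ligases, where 15.4% of all genes did. HUWE1 had the smallest adjusted p, 0.00751, followed by NEDD4 and UBR4 at 0.0118 and WWP1 at 0.0123. The H3B-8800 effect on HUWE1 was larger under MHCC-97H than under MDA-MB-231 by 0.51 ± 0.09 and than under HCT-116 by 0.55 ± 0.09 on the log2 scale (adjusted p = 0.00556 and 0.0110, edgeR). HUWE1 itself stood at 739.9, 736 and 741 CPM with H3B-8800 and 759, 728 and 735 CPM with DMSO under MDA-MB-231, values that interleave. For WWP1, whose values had opposite signs under these labels, the gap against MDA-MB-231 was 0.67 ± 0.13 and that against HCT-116 0.45 ± 0.13. For NEDD4 the gap was 0.66 ± 0.13 against MDA-MB-231 and 0.61 ± 0.13 against HCT-116. For UBR4 it was 0.31 ± 0.08 and 0.45 ± 0.08. Pair by pair, 13 ligases had a larger effect under MHCC-97H than under MDA-MB-231 (10.5% of all genes) and 11 than under HCT-116 (7.01% of all genes). The comparisons share the MHCC-97H libraries. The GC and length correction left 5 of the 30 with a difference between labels, and leaving out the MHCC-97H DMSO library numbered 3 left 4. There were 6 without the MHCC-97H DMSO library numbered 2 or either MHCC-97H H3B-8800 library numbered 1 or 2, and 7 without the MDA-MB-231 DMSO library numbered 2. The shares of all genes that passed in these settings are not reported here, so these drops are not read as particular to the ligases.

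The levels with DMSO differed between labels for more ligases than the response did. Between DMSO libraries, 28 of the 30 ligases differed between MHCC-97H and MDA-MB-231, where 82.7% of all genes did: 5 were higher under MHCC-97H (39.5% of all genes) and 23 lower (43.2% of all genes). HERC5 was among the 5, and having passed the filter through MHCC-97H libraries alone it could only come out higher there. Against HCT-116, where 82.5% of all genes differed, the counts were the same, 5 higher (39.5% of all genes) and 23 lower (43.0% of all genes). Between MDA-MB-231 and HCT-116, 0 of the 30 differed (0.0351% of all genes by edgeR), and 0 by limma voom and DESeq2. An unadjusted p under 0.05 was found there for 0 of the 30, where 588 of the 14234 genes tested had one. Per kb of exons, HUWE1 led in MHCC-97H DMSO libraries with 20.6 ± 1.61 CPM per kb, followed by HECTD3 with 15.3 ± 0.440, UBR7 with 13.4 ± 1.61 and UBR4 with 13.3 ± 1.14 (SD, n = 3 each). UBR7 and UBR4 lay within their spread of each other, below HECTD3. In MDA-MB-231 DMSO libraries HUWE1 led with 42.6 ± 0.917 CPM per kb and SMURF1 came close behind with 40.3 ± 0.693, ahead of WWP1 with 21.8 ± 1.26. HECW2 and HERC6 were among the lowest under every label, with at most 0.416 CPM per kb in DMSO libraries.

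WWP1 had the lowest MHCC-97H level relative to the other labels, with 18.3, 17.3 and 17.9 CPM in MHCC-97H DMSO libraries, against 139, 145 and 129.5 CPM in MDA-MB-231 DMSO libraries, a log2 difference of -2.95 ± 0.09 (adjusted p = 1.11e-13). AREL1 followed at -2.41 ± 0.08 and SMURF1 at -2.27 ± 0.05. In the other direction, HERC4, a ligase needed for sperm maturation in mice, had 86.8, 81.4 and 80.2 CPM in MHCC-97H DMSO libraries, against 34, 31.1 and 29.1 CPM in MDA-MB-231 DMSO libraries and 34, 29.1 and 35 CPM in HCT-116 DMSO libraries. Like its relatives HERC5 and HERC6 it was higher under MHCC-97H, with log2 differences of 1.40 ± 0.09 and 1.34 ± 0.09 (adjusted p = 8.83e-10 and 1.47e-09). HERC6 was at 3.20 ± 0.69 against MDA-MB-231, HECTD2 at 0.92 ± 0.18 and UBR7 at 0.56 ± 0.07. The level of UBR4 differed by -0.20 in log2 between MHCC-97H and MDA-MB-231 DMSO libraries, and this turned to 0.45 after the GC and length correction.

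After H3B-8800, most of the 16 ligases that rose were still below the DMSO levels of the other labels, as were most of all genes called higher. HERC5, at 0 counts under those labels, could only lie above. For 13 of the 16, every MHCC-97H library given H3B-8800 lay below every MDA-MB-231 DMSO library (63.1% of the 1831 genes called higher under MHCC-97H), and for the other 3, HERC4, HERC5 and UBR4, every one lay above (24.8% of those genes). Against HCT-116 DMSO libraries, 10 of the 16 lay below (58.1% of those genes), HERC4 and HERC5 above (24.5% of those genes), and 4 overlapped. HERC1, for example, averaged 19 ± 1.97 CPM in MHCC-97H libraries given H3B-8800 and 36.6 ± 2.73 CPM in MDA-MB-231 DMSO libraries (SD, n = 3 each).

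**Figure D4:**
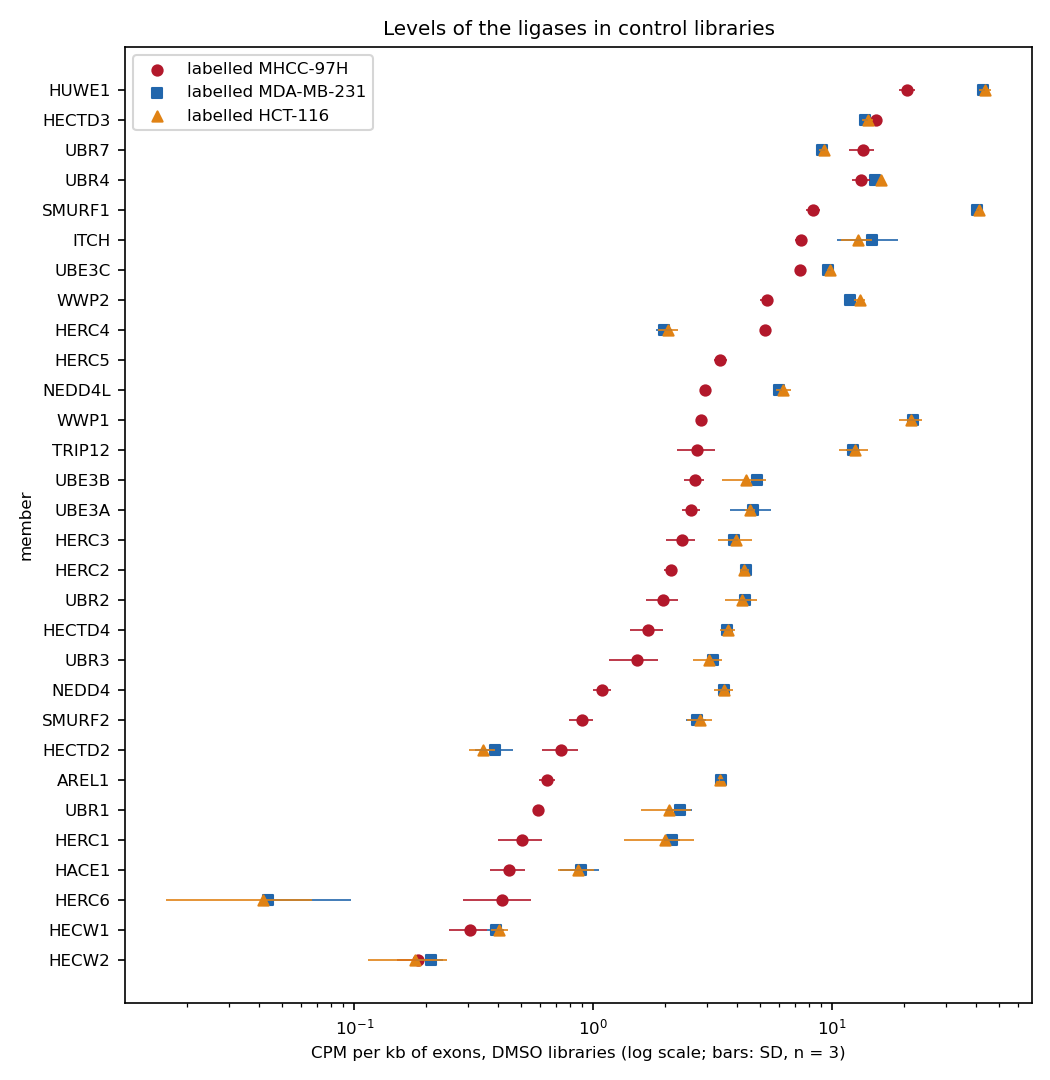
Mean CPM per kb of exons of each ligase in the 3 DMSO libraries of each label, on a log axis, ordered by the MHCC-97H level, with bars for the SD (HERC6 under MDA-MB-231 has its upper bar alone, and HERC5 is at 0 under the other labels). Blue squares and orange triangles nearly coincide, and they lie right of the red circles except for HERC4, HERC6, HECTD2, HECTD3 and UBR7, and for HECW2, where all 3 nearly meet.

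The ligases have long transcripts. Their median exon length in the GENCODE 29 annotation was 9.58 kb, against 4.93 kb over the genes tested, their median coding sequence 3.19 kb against 1.41 kb, and they had a median of 25 introns against 8. The median GC content of their transcripts was 43.8%, against 48.8%. Across the 30, Spearman's rho of the MHCC-97H fold change was 0.52 with coding length and 0.48 with the number of introns, and across the 14223 annotated genes the values were 0.32 and 0.23. These are correlations across genes of the same libraries and carry no test. With exon length rho was 0.17 across the ligases and 0.36 across all genes, and with GC content -0.35 and -0.52. Of the genes with at least 10 kb of exons, 32.7% of 1640 were called higher, and of the 14 ligases in that class 8 were. Among the 16 shorter ligases 8 were called higher, where 10.3% of 12583 shorter genes were.

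Giants of similar coding length had unlike fold changes. HERC1 and HERC2 code for proteins of nearly the same size, with coding sequences of 14583 and 14502 bases, and had log2 fold changes of 1.14 ± 0.26 and 0.15 ± 0.06. UBR4, with the longest coding sequence at 15549 bases, was at 0.35 ± 0.06. Their transcripts differ in GC content, 47% in HERC1, 53.3% in HERC2 and 51.7% in UBR4. The part of length or GC content in these values was not tested. After the GC and length correction, HERC1 (0.82), HECTD4 (0.42), UBR1 (0.39), TRIP12 (0.35), UBR2 (0.30) and HUWE1 (0.28) were still called higher. Exons of 13 of the 30 overlap those of another gene, 735 bases of SMURF1 with TRRAP and 391 bases of UBR4 with a non-coding gene among them, and the strand setting of the counts is not given in the sources used here, so reads of such pairs cannot be told apart.

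**Figure D5:**
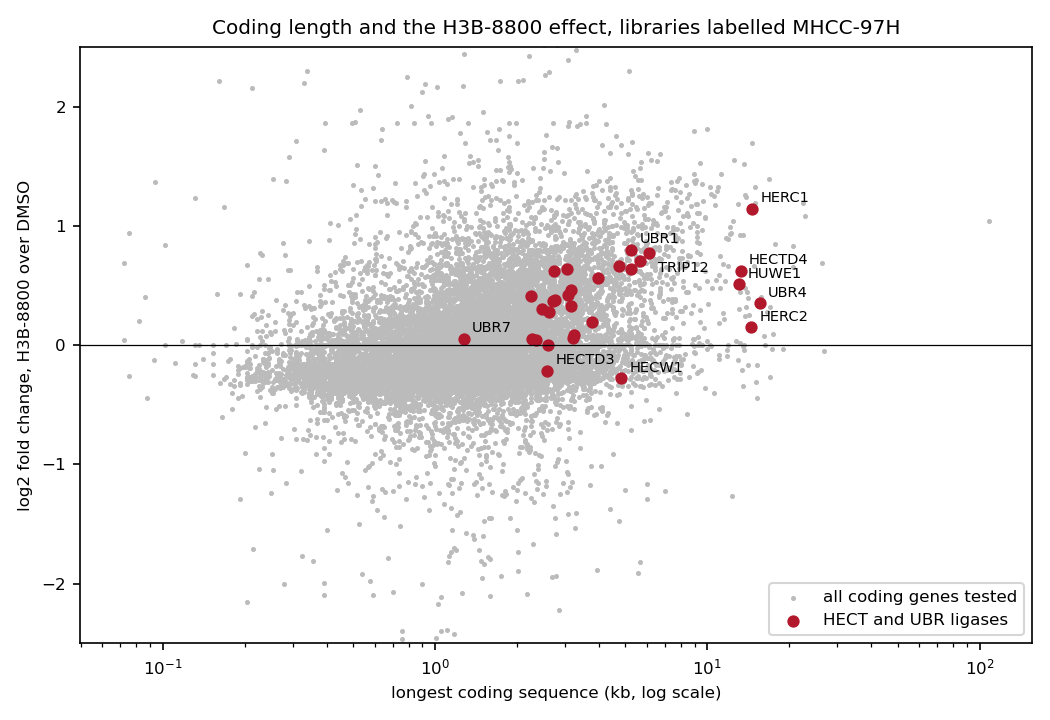
Log2 fold change under MHCC-97H, H3B-8800 over DMSO, against the longest coding sequence in kb on a log axis, with all coding genes tested in grey and the 30 ligases in red. The ligases lie in the right part of the cloud and mostly above 0, HERC1 highest at 1.14 and HECW1 and HECTD3 below 0. 253 genes beyond 2.5 on the vertical axis are not drawn.

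The enzymes around these ligases did not all move with them. The lists that follow were drawn up with earlier results of these data known and are counted, not tested as sets. Of 17 E1 and E2 enzymes under the MHCC-97H label, 2 rose and 5 fell (12.9% and 14.7% of all genes), with a median of -0.12. UBE2H, an E2, averaged 316 ± 3.37 CPM with H3B-8800 and 252 ± 18 CPM with DMSO, a change of 0.33 ± 0.07 (adjusted p = 0.00417, edgeR). UBA6, an E1 for ubiquitin and FAT10, rose by 0.65 ± 0.14, and the E2 enzyme UBE2E1 was at -0.19 ± 0.05 (adjusted p = 0.00496 and 0.0122). With library totals in place of TMM scaling none of the 17 was called lower (2.43% of all genes). The call of UBE2E1 was also lost without the MHCC-97H DMSO library numbered 3 and in a fit of the MHCC-97H libraries alone.

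Of 15 genes of the N-degron pathway, 5 rose and 2 fell (12.9% and 14.7% of all genes), with a median of 0.26. ATE1, which attaches arginine to N-termini that UBR1 and UBR2 then bind, averaged 14.1 ± 1.21 CPM with H3B-8800 and 7.95 ± 2.01 CPM with DMSO and changed by 0.82 ± 0.18 (adjusted p = 0.00507). NAA15, the anchoring subunit of an N-terminal acetyltransferase, was at 0.67 ± 0.14, and its catalytic partner NAA10 at -0.33 ± 0.06 (adjusted p = 0.00438 and 0.00255), so that the subunits of this enzyme moved in opposite directions. After the GC and length correction 3 of the 15 were called higher and 1 lower (7.17% and 8.14% of all genes). NAA10 was no longer called.

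Among 14 adaptors and partners of NEDD4 ligases, 2 rose and 2 fell (12.9% and 14.7% of all genes), with a median of 0.14. The arrestin-like adaptors split, ARRDC3 at 0.45 ± 0.10 and ARRDC2 at -0.27 ± 0.08 (adjusted p = 0.00592 and 0.0177), and the autophagy receptor TAX1BP1, a partner of ITCH, was at 0.27 ± 0.07 (adjusted p = 0.0147). The calls of ARRDC2 and TAX1BP1 were lost after the GC and length correction and without the MHCC-97H H3B-8800 library numbered 2. Of 15 genes of the TGF-beta and BMP pathway that SMURF ligases act on, 4 rose and 2 fell (12.9% and 14.7% of all genes). Their median was 0.08. The receptors ACVR1 and TGFBR2 were at 0.27 ± 0.06 and 0.33 ± 0.08 (adjusted p = 0.00790 and 0.0102). SMAD7, the inhibitor that brings SMURF ligases to receptors, was at -0.17 ± 0.05 (adjusted p = 0.0146) and at 0.01 after the GC and length correction.

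The ISG15 system was split between the labels, and all 19 genes of that list differed between MHCC-97H and MDA-MB-231 DMSO libraries, 7 higher and 12 lower under MHCC-97H (39.5% and 43.2% of all genes). HERC5 was present under MHCC-97H and at 0 counts elsewhere, while UBA7, the E1 enzyme for ISG15, had 2 counts in the MHCC-97H libraries given H3B-8800 and 1 in those given DMSO. In MDA-MB-231 libraries UBA7 averaged 15.1 ± 2.20 CPM with H3B-8800 and 14.9 ± 0.428 CPM with DMSO (SD, n = 3 each). UBE2L6, the E2 for ISG15, was lower under MHCC-97H, with 5.03 ± 0.776 CPM in DMSO libraries, than under MDA-MB-231, with 32.7 ± 2.57 CPM. ISG15 itself averaged 40.1 ± 1.37 CPM in MHCC-97H DMSO libraries, 9.93 ± 0.972 CPM in MDA-MB-231 DMSO libraries and 9.25 ± 0.766 CPM in HCT-116 DMSO libraries. Under no label were UBA7 and HERC5 both above 3 counts in a group.

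With H3B-8800 under MHCC-97H, 2 of the 19 ISG15 and interferon genes rose and 1 fell (12.9% and 14.7% of all genes). Their median was -0.08. ISG15 averaged 29.5 ± 2.11 CPM with H3B-8800 and 40.1 ± 1.37 CPM with DMSO, a change of -0.45 ± 0.12 (adjusted p = 0.0158), in the opposite direction to HERC5. DDX58, the RNA sensor RIG-I, was at 0.80 ± 0.24 (adjusted p = 0.0230). Neither of these genes was called after the GC and length correction. OAS2 and UBA7 were near 0 counts under this label and their fitted values are not read.

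In ligases of other types the counts were mixed as well. Of 13 RBR ligases, which pass ubiquitin through a cysteine as HECT ligases do, 3 rose and 2 fell (12.9% and 14.7% of all genes). Their median was -0.10. RNF144A was called on 16 counts over the H3B-8800 libraries and 0 over the DMSO libraries, at least 4.40-fold higher against a floor of 3 counts over the DMSO group. ANKIB1 was at 0.80 ± 0.19 and ARIH1, which works with cullin ligases, at 0.51 ± 0.13 (adjusted p = 0.00725 and 0.00926), the last turning to -0.06 after the GC and length correction. Of 16 cullins and subunits of RING ligases, 6 rose and 3 fell (12.9% and 14.7% of all genes), with a median of 0.01. The scaffolds CUL4B and CUL5 were at 0.54 ± 0.09 and 0.51 ± 0.12, and DDB1, the adaptor of CUL4 ligases, at -0.24 ± 0.07 (adjusted p = 0.00218, 0.00774 and 0.0158, edgeR). After the GC and length correction 1 of the 16 was called higher and 2 lower (7.17% and 8.14% of all genes). CUL5 was no longer among them. With upper-quartile factors or library totals 0 were called lower (9.14% and 2.43% of all genes). The call of DDB1 was also lost without the MHCC-97H DMSO library numbered 3 or the H3B-8800 library numbered 1. Of 13 genes named in earlier work as substrates or partners of HUWE1, TRIP12, HERC2 or UBE3A, 6 rose and 2 fell. The shares over all genes were 12.9% and 14.7%, and the median of the 13 was 0.31. HIF1A, the hypoxia factor, was at 0.64 ± 0.10, the deubiquitinase USP7 at 0.42 ± 0.08 and the DNA damage adaptor PAXIP1 at 0.59 ± 0.12 (adjusted p = 0.00156, 0.00398 and 0.00406). After the GC and length correction 1 adaptor or partner of NEDD4 ligases was called higher and 0 lower (7.17% and 8.14% of all genes). The counts were 3 and 1 for the TGF-beta and BMP genes and 2 and 0 for the RBR ligases. For the substrates and partners they were 5 and 0. With library totals, 1 gene of the 8 lists, in the N-degron pathway, was called lower (2.43% of all genes). Under the other labels edgeR called none of the genes of these 8 lists (0.0351% of all genes under each label). Between 0 and 5 per list had an unadjusted p under 0.05. Of the 14234 genes tested, 1024 had one under MDA-MB-231 and 655 under HCT-116.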

How the data were processed

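The authors deposited whole-number read counts for 20263 Ensembl genes in 18 libraries, with no normalization. Per the submitters' processing notes, fastp and HISAT2 were used with the GRCh38 build; versions, the counting tool, annotation and strand setting: not given in the sources used here. All 18 count columns were mapped to samples by their labels, and no columns were identical. The 30 ligases, the gene lists and the tests were chosen with earlier results of these data known.

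Genes were filtered with filterByExpr by group (14234 left), scaled by TMM and fitted with robust quasi-likelihood dispersions in edgeR 4.0.16 under R 4.3.3, each of the 6 groups having its own mean. Adjusted p-values are Benjamini-Hochberg over all genes tested. The SE of a log2 fold change is its size divided by the square root of F. In counts simulated from the mean levels of the groups, 77 of 94 genes changed 1.5-fold and 106 of 106 changed 2-fold under MHCC-97H were called. The spread was set alike for every gene, not taken from these libraries, and only genes above a count bound were changed. These shares therefore do not carry over to ligases with a larger spread or low counts.

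Gene names, coordinates, exon overlaps, lengths and GC content came from GENCODE 29 (20224 identifiers matched), and CPM per kb used the union of exons. The GC and length correction fitted natural splines with 5 degrees of freedom to each library and used them as offsets. Promoter windows came from RefSeq on GRCh38.p14. Per-library values were given for the 12 ligases called under MHCC-97H with the smallest adjusted p, the 4 with the smallest interaction p and the most abundant of each class per kb; from each list up to 3 called genes with the smallest adjusted p were named, except 1 that is not reported here. HECTD3, HERC5 and HERC6 were singled out after their values were seen. Alternatives were relative log expression and upper-quartile factors, library totals, no filter, at least 50 counts in 3 libraries, a replicate block, the GC and length correction, limma 3.58.1 voom, DESeq2 1.42.0, a separate fit per label and each library left out. Counting error alone is covered by floors of 3 counts.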

Additional observations from a re-analysis of the deposited data

Results flagged for a closer look

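For 12 ligases the H3B-8800 effect differed between the line labels by the test of both interaction terms (edgeR's quasi-likelihood test, adjusted over all genes, 15.4% of which passed). In each of the 12 every H3B-8800 library under MHCC-97H lay above every DMSO library (19.6% of all genes), and the fitted value was larger than under both other labels. The 12 were picked by a test on these same libraries, so this describes them and adds no evidence. The smallest adjusted p-values were HUWE1 0.00751, NEDD4 0.0118, UBR4 0.0118 and WWP1 0.0123. Next came HECTD4 0.0137, TRIP12 0.0149, UBR1 0.0258 and HACE1 0.0284. The remaining 4 had adjusted p-values of UBR2 0.0301, HERC1 0.0305, UBR3 0.0408 and HERC4 0.0466. By size, the effect under MHCC-97H minus that under MDA-MB-231 ran from 0.31 ± 0.08 in UBR4 to 1.36 ± 0.36 in HERC1 on the log2 scale. HUWE1 passed under every alternative run, and HERC4 and UBR3 failed under 16 and 14 of the 29. The part of transcript GC content and length in these differences was not tested beyond the correction given with the processing.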

How the results depend on the processing

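Under MHCC-97H, 16 ligases were called higher; the other scalings, filters, tools, the block and the separate fit gave 14 to 21, and the lower value was from limma voom and the higher from library totals. After the GC and length correction the count was 6 (7.17% of all genes), and 7 with the replicate block as well (8.23% of all genes). With single libraries left out it ran from 10 to 17, and the share of all genes from 8.14% to 14.8%. The 1 call lower (HECTD3) became 0 with relative log expression factors, upper-quartile factors, library totals and the separate fit, 3 others (HERC4, HECW1, NEDD4L) after that correction and the replicate block, and 0 to 1 with single libraries left out. Differences between labels passed for 12 ligases, for 5 after that correction, with or without the replicate block, for 10 to 17 with the other alternatives and for 4 to 14 with single libraries left out. The shares of all genes that passed in these alternatives are not reported here. Counts of 0 under the other labels stayed 0 in all alternatives, and DMSO differences from MHCC-97H passed for 23 to 29.

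After that correction, without and with the replicate block, log2 fold changes under MHCC-97H turned in NEDD4L -0.27 and -0.27, HERC2 -0.047 and -0.044, HERC4 -0.19 and -0.19, HECTD2 -0.33 and -0.33, UBE3A -0.19 and -0.20, UBE3B -0.062 and -0.060, UBE3C -0.098 and -0.097, and among listed genes in ARIH1 -0.060 and -0.056 and SMAD7 0.014 and 0.013. The DMSO level of UBR4 under MHCC-97H turned to 0.45 and 0.44 against MDA-MB-231 and 0.37 and 0.37 against HCT-116. With single libraries left out, values that were never called crossed 0: WWP2 -0.027 to 0.054, HECTD2 -0.084 to 0.19, UBE3B -0.015 to 0.11, UBR7 -0.040 to 0.11. Scaling by library totals shifted the all-gene median under MHCC-97H by 0.097 and called 17.6% of them higher and 2.43% lower. The cause of these shifts was not tested.

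The labels' replicate numbers gave no sign of pairing under MHCC-97H, where the deviations of same-numbered libraries correlated at -0.05, 0.06 and 0.02. Under MDA-MB-231 the values were 0.12, 0.07 and 0.02, and under HCT-116 0.05, 0.19 and 0.03, highest for the pair numbered 2. With the replicate block 17 ligases were called higher and 1 lower under MHCC-97H (15.3% and 17.4% of all genes), and 14 differed between labels. Without both HCT-116 libraries numbered 2, chosen after seeing the data, 18 were called higher (15.4% of all genes). HERC6 had few counts, 71.0 on average in MHCC-97H DMSO libraries and 10.0 in MDA-MB-231 DMSO libraries, and the part of depth in its error was not tested.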

Other observations

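The pair of HCT-116 libraries numbered 2 had low levels of several ligases under both treatments. HERC1 had 40.1, 20.1 and 33.9 CPM in HCT-116 libraries given H3B-8800 and 41.6, 21.2 and 39.2 CPM in those given DMSO, in the order of their numbers. UBR1 had 21.6, 13 and 23.1 CPM with H3B-8800 and 23.9, 15 and 22.9 CPM with DMSO, and TRIP12 164, 113 and 158 CPM with H3B-8800 and 167, 131 and 171 CPM with DMSO. In these 3 ligases the library numbered 2 was the lowest of its group. This was not so for every ligase. UBR4, the longest, had 362, 376 and 369 CPM with H3B-8800 and 397, 388 and 399 CPM with DMSO, so that number 2 was the highest with H3B-8800. WWP2 was highest in number 2 under both treatments, with 106, 128 and 113 CPM with H3B-8800 and 111, 124 and 118 CPM with DMSO.

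Across the 30 ligases under MDA-MB-231, Spearman's rho of the H3B-8800 fold change was 0.51 with transcript GC content and -0.28 with coding length, where the MHCC-97H values were -0.35 and 0.52. Over all 14223 annotated genes rho with GC content was 0.31 under MDA-MB-231 and -0.52 under MHCC-97H. These are values across genes of shared libraries, with no test.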
